A study of Rattus norvegicus with 9 samples.

Results

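The aquaporins known from skin, fat and muscle were examined, AQP1, AQP3, AQP4, AQP5, AQP7, AQP9 and AQP11, taken by symbol from a table of read counts for 23480 genes. All 7 were in the table and all 7 passed the filter on low counts, as did 14933 genes in all. Aquaporins are membrane proteins that let water, and in some members glycerol or hydrogen peroxide, cross the membrane down a gradient. The water channels among them pass little but water, and the aquaglyceroporins also pass glycerol. In skin, AQP3 lies in the membranes of basal keratinocytes. AQP1 lies in capillary endothelium and red cells, AQP5 in the secretory cells of glands, AQP7 in fat cells and AQP4 in the membrane of fast skeletal muscle fibres.

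The RNA, selected by its poly(A) tail, came from skin of male Wistar rats, an outbred laboratory strain. The young group held 5 animals of 6 months and the old group held 4 animals of 24 months, with no treatment named for either. From which part of the body the skin was taken is not known here. The keratin genes KRT5, KRT14 and KRT10 and the collagen gene COL1A1 were read at 1497 CPM (reads per 1000000 counted) or more in every library.

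Library totals ran from 17.3 to 20.2 M reads (M, 1000000) in young and from 20.1 to 34.1 M in old skin. Hair follicle keratin and trichohyalin genes, a list of 11, summed to 21.6 to 25550 CPM in young libraries and 38.4 to 9824 CPM in old libraries. Skeletal muscle markers summed to 54578 to 136881 CPM in young and 19615 to 111392 CPM in old libraries. The libraries thus differed widely within each age in how much hair follicle and muscle RNA they held. In such bulk RNA, fewer cells of a type and less RNA per cell cannot be told apart.

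Between the ages, 1 of the 7 aquaporins rose, AQP7, and 1 fell, AQP3 (edgeR quasi-likelihood test, Benjamini-Hochberg adjusted p under 0.05 over all genes tested). By the same rule 14.0% of all genes were called, 9.62% higher and 4.41% lower in old skin. The old and young values did not overlap for 3 of the 7, AQP7, AQP3 and AQP9; by the same rule 16.5% of all genes did not overlap. The median log2 fold change, old over young, was -0.31 over the 7 genes and -0.05 over all genes tested. CPM values are compared between ages and not between genes, because transcript lengths were not used.

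**Figure D1:**
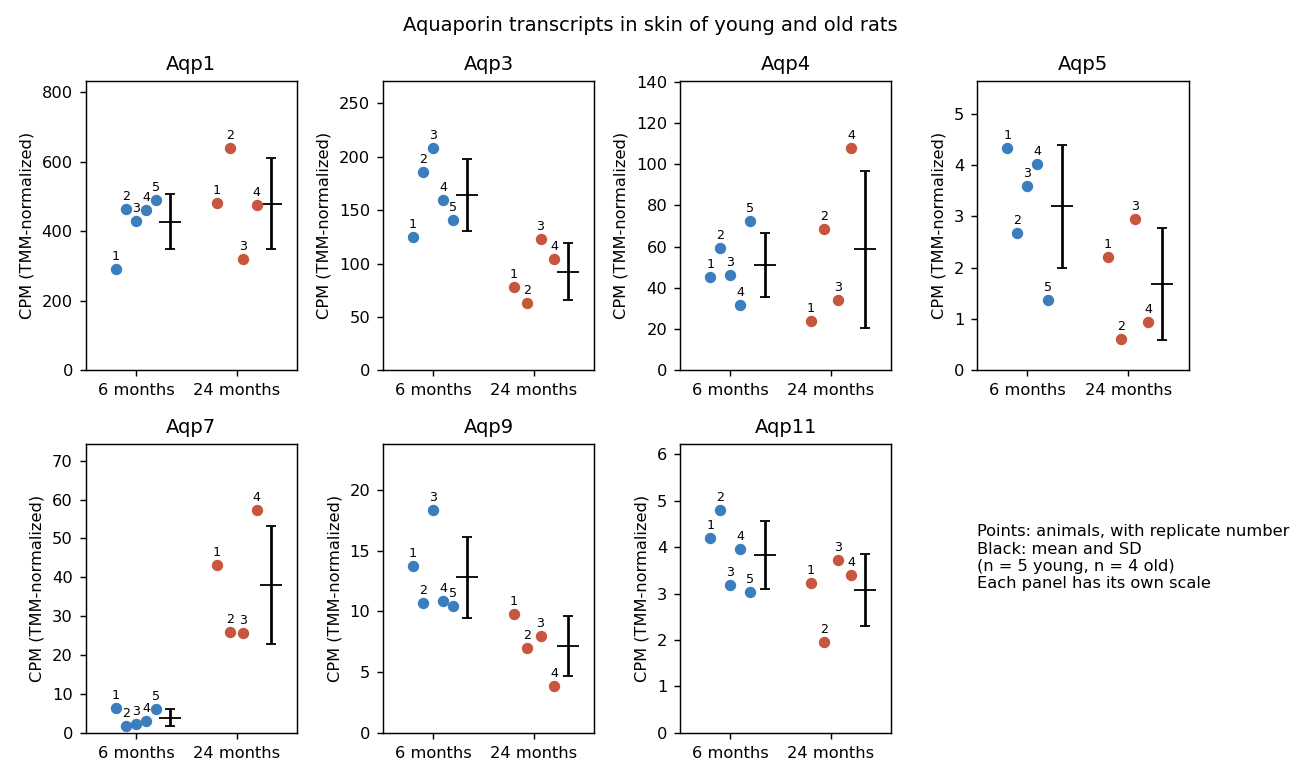
CPM (TMM-normalized) of the 7 aquaporins in each animal, with its replicate number, by age; black marks give mean and SD (n = 5 young, n = 4 old). AQP7 ran from 1.71 to 6.51 CPM in young and from 25.7 to 57.2 CPM in old skin, AQP3 and AQP9 lay lower in all old samples, and the other genes overlapped between the ages.

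The upstream sequences of AQP3 and AQP9 are shown because the levels of these 2 aquaporins were lower in every old library than in every young one. Each is the 250 bases before the gene's start in RefSeq, on rat assembly GRCr8 and 5′ to 3′ on the gene's own strand. Capitals mark the letters TATAAA and CANNTG, the E-box form bound by basic helix-loop-helix and some zinc finger factors. The AQP3 window is chr5:61040684-61040933 on the minus strand and the AQP9 window is chr8:80718189-80718438 on the minus strand.
AQP3: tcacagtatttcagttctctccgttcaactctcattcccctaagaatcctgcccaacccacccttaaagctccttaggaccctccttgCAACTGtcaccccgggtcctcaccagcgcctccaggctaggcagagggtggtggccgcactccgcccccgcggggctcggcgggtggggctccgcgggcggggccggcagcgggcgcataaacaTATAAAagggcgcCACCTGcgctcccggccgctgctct
AQP9: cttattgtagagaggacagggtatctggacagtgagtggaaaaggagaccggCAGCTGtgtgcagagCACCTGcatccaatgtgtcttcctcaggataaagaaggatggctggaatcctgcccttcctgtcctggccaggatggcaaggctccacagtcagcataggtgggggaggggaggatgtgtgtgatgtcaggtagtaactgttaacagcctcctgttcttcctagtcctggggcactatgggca

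The AQP3 window held 1 TATAAA and the AQP9 window held 0, searched on both strands, and 12.9% of 33469 RefSeq windows of the same length held at least 1. Each window held 2 CANNTG matches, and 65.5% of all windows held at least 1; no marked TATAAA and CANNTG overlapped. The GC box letters GGGCGG, searched on both strands, occurred 2 times upstream of AQP3 and 0 times upstream of AQP9, and in 30.5% of windows. G and C made up 65.2% of the AQP3 window and 54.0% of the AQP9 window, with a median of 51.2% over all windows. These matches describe the letters only. Of the 7 genes, 6 had a window in the RefSeq table, all but AQP7. In the RefSeq table AQP3 and AQP7 are next to each other on chromosome 5 in the gene order, and their RNA levels differed between the ages in opposite directions.

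AQP3, the aquaglyceroporin of basal keratinocytes, carries water and glycerol into the epidermis. Its level was 125, 186, 208, 159.8 and 141 CPM in young replicates 1 to 5 and 78.4, 63.1, 123 and 104 CPM in old replicates 1 to 4. Every old sample lay below every young one, though old replicate 3 and young replicate 1 were close. The mean was 164 ± 33.7 CPM in young (SD, n = 5) and 92.2 ± 26.6 CPM in old skin (n = 4). The log2 fold change was -0.83 ± 0.22 (SE; edgeR adjusted p = 0.0359), a fold of 0.562 with a 95% interval of 0.398 to 0.795.

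The AQP3 call was lost without young replicate 2, 3 or 4 (log2 fold change -0.78, -0.73 and -0.80; edgeR adjusted p = 0.0790, 0.0812 and 0.0831) and without old replicate 1, 2 or 4 (-0.72, -0.69 and -0.85; adjusted p = 0.103, 0.0595 and 0.0854). It was also lost with library totals alone as the scaling, which moved the median of all genes from -0.05 to 0.11 and gave AQP3 -0.65 (adjusted p = 0.116; -0.77 relative to that median, against -0.79 with TMM), and with a fat cell score (the mean log2 CPM of fat cell markers) in the model, under which no gene of the table was called (-0.20, adjusted p = 0.967).

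AQP3 was set beside 8 markers of basal epidermis, among them keratins KRT5 and KRT14 and the hemidesmosome gene COL17A1. Of these, 1 fell and 7 did not pass, with a median log2 fold change of -0.08 and a summed level of 8662 to 15892 CPM in young and 5717 to 11053 CPM in old libraries. The marker that fell was KRT14, from 3540 ± 908 to 1811 ± 353 CPM (log2 fold change -0.97 ± 0.23). KRT5 did not pass but also lay lower in every old library, at 3802 ± 906 and 2366 ± 569 CPM (-0.68 ± 0.23, edgeR adjusted p = 0.0823). The other markers overlapped between the ages, with log2 fold changes from -0.23 to 0.28. AQP3 itself stood at -0.83, between KRT14 and KRT5, so its difference from the marker mean rests on these other markers. On the log2 scale, AQP3 minus the mean of the markers in the same library was -2.26 ± 0.19 in young (range -2.52 to -2.01) and -2.91 ± 0.07 in old skin (-3.00 to -2.85), with no overlap. The difference was -0.64 (exact permutation test, two-sided, p = 0.00794, which is the least the 9 samples can give, and p = 0.0238 adjusted over 6 such comparisons). Among these 6 is the comparison of AQP9 with macrophage markers, whose separation was fixed in advance. Its equally small p lowers the adjusted p of AQP3, here and in the alternatives that follow. Without any 1 library it ran from -0.71 to -0.58, with adjusted p from 0.0429 to 0.0857, and the smallest unadjusted p is then 0.0286 or 0.0179 (4 against 4 or 5 against 3 samples). Within the old group the 4 animals stood in the same order for AQP3 and for the markers, 3, 4, 1 and 2 from high to low. In the young group the order was 3, 2, 4, 5 and 1 for AQP3 and 3, 5, 2, 4 and 1 for the markers. With the median of the markers in place of their mean the difference was -0.99 (adjusted p = 0.0317). Upper epidermis moved as well. Of 9 genes of terminal differentiation 4 fell, with the smallest adjusted p for the transglutaminase TGM3 (-1.66 ± 0.26) and the caspase CASP14 (-2.36 ± 0.44), and 5 did not pass; over all 9 the median was -1.17, and their summed level was 17983 to 62396 CPM in young and 12873 to 20047 CPM in old libraries. Their part in the AQP3 result was not tested. The nearest patterns to AQP3 over the 9 libraries, as the mean absolute difference of centred log2 CPM, were those of STX19, a syntaxin, at 0.0910 and HSBP1L1 at 0.127, against a mean absolute deviation of 0.42 for AQP3 itself.

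**Figure D2:**
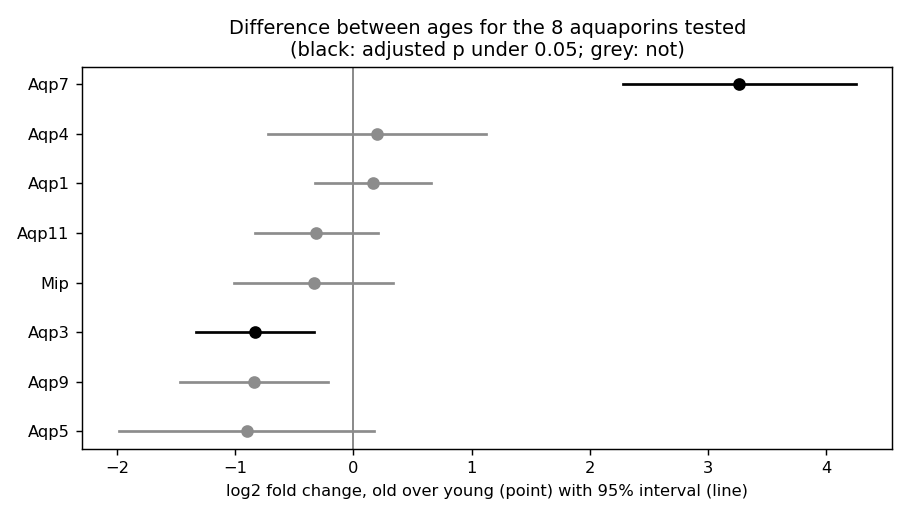
Log2 fold change, old over young, of the 8 aquaporins tested (the 7 and the lens aquaporin MIP), with 95% intervals; black marks those with an adjusted p under 0.05. AQP7 at 3.26 and AQP3 at -0.83 are black; the interval of AQP9 also lies below 0, but its adjusted p was 0.0757.

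AQP7 is the aquaglyceroporin through which fat cells release the glycerol of broken-down triglyceride. Its level was 6.51, 1.71, 2.36, 2.94 and 6.22 CPM in young replicates 1 to 5 and 43.3, 25.9, 25.7 and 57.2 CPM in old replicates 1 to 4. The lowest old sample stood well above the highest young one. In reads, that is 360 over the young and 4479 over the old libraries, and the shallowest single value was 30. The mean rose from 3.95 ± 2.25 CPM (n = 5) to 38.0 ± 15.2 CPM (n = 4). The log2 fold change was 3.26 ± 0.44 (SE; edgeR adjusted p = 0.00204), a fold of 9.61 with a 95% interval of 4.85 to 19.0. Without any of the 9 libraries in turn it ran from 3.04 to 3.55, and the call held each time (adjusted p up to 0.00707).

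Fat cell markers rose with AQP7. Of 11 such markers, 9 rose and the other 2 did not pass, with a median log2 fold change of 3.10, and their summed level was 664 to 1333 CPM in young and 3746 to 7976 CPM in old libraries. ADIPOQ, which encodes the hormone adiponectin, went from 43.5 ± 27.3 to 901 ± 433 CPM and CFD, which encodes adipsin, from 194 ± 80.4 to 1479 ± 527 CPM. The markers that did not pass were the lipid droplet genes PLIN4 (0.67 ± 0.32) and CIDEA (-0.74 ± 0.32); sebaceous cells also express CIDEA. Their part in the AQP7 result was not tested beyond the comparisons that follow.

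The order of the animals was alike in part for AQP7 and for the fat cell markers. By CPM the old animals stood 4, 1, 2 and 3 from high to low for AQP7, and 4, 1, 3 and 2 for the mean of the markers, where replicates 2 and 3 were almost level. In young skin, replicates 1 and 5 were highest for both, and replicate 2 was lowest for AQP7 but in the middle for the markers. On the log2 scale AQP7 minus the mean of the 11 markers was -3.42 ± 0.635 in young (range -4.52 to -2.91) and -2.87 ± 0.14 in old skin (-3.05 to -2.74). The difference of 0.55 did not pass (two-sided exact permutation p = 0.0635; adjusted over 6 comparisons, p = 0.0952). It was 0.99 with the median of the markers in place of the mean (adjusted p = 0.0317), 0.67 without young replicate 5 (adjusted p = 0.0429) and 0.27 without young replicate 2 (adjusted p = 0.114). With the fat cell score in the model, AQP7 stood at 0.58 on the log2 scale (edgeR adjusted p = 0.947). The young and old scores lay apart with no overlap, and edgeR called 0 genes in that model, with 504 higher and 183 lower at an unadjusted p under 0.05; no other tool was run on it. The nearest patterns to AQP7 were those of RBP4, the carrier of retinol in plasma (log2 fold change 3.34 ± 0.56, mean difference 0.276), and MYBPH, a myosin-binding protein of muscle (3.28 ± 0.47, 0.297). The mean absolute deviation of AQP7 itself was 1.65.

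The steps that make and use glycerol around AQP7 changed in part. Of 11 genes of glycerol release and use that were tested, 3 rose, 1 fell and 7 did not pass, with a median log2 fold change of 0.19. By the same rule 9.62% of all genes tested rose and 4.41% fell. Both lipases that act after the first step of triglyceride breakdown rose: LIPE, hormone-sensitive lipase, from 52.7 ± 7.28 to 171 ± 75.4 CPM and MGLL, monoglyceride lipase, from 84.1 ± 17.9 to 264 ± 82.5 CPM. PCK1, which serves the making of glycerol backbone in fat cells, went from 7.79 ± 7.58 to 168 ± 107 CPM. ABHD5, the co-activator of adipose triglyceride lipase, fell from 225 ± 31.9 to 136 ± 23.9 CPM (log2 fold change -0.73 ± 0.16, adjusted p = 0.0151). The lipase gene itself, PNPLA2, is listed at 0 in all 9 libraries and is not assessed. GK, the kinase that traps glycerol in the cell, stood at -0.30 ± 0.25 (adjusted p = 0.469), and PLD2, a phospholipase that binds AQP3 and uses its glycerol in keratinocytes, at 0.10 ± 0.17 (adjusted p = 0.736).

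AQP9 is an aquaglyceroporin known from liver and from leukocytes, and in human skin from keratinocytes. Its level was 13.7, 10.7, 18.3, 10.9 and 10.4 CPM in young replicates 1 to 5 and 9.76, 6.99, 7.95 and 3.87 CPM in old replicates 1 to 4. All old samples lay below all young ones, but the gap between the highest old and the lowest young sample was small. The mean was 12.8 ± 3.36 CPM in young (n = 5) and 7.14 ± 2.47 CPM in old skin (n = 4). The log2 fold change of -0.84 ± 0.28 did not pass (edgeR adjusted p = 0.0757), with a fold of 0.559 and a 95% interval, unadjusted, of 0.363 to 0.862. It passed in DESeq2 (-0.83, adjusted p = 0.0240) and with the muscle score as a covariate (-1.03, adjusted p = 0.0333), stood at -0.28 with the fat cell score (adjusted p = 0.964), and without any 1 library the edgeR adjusted p ran from 0.0682 to 0.181.

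Macrophage markers moved the other way. Neutrophil markers stood in both directions, but those called by edgeR were all higher. Of 12 macrophage markers tested, 12 rose, with a median log2 fold change of 2.04, and their summed level was 145 to 317 CPM in young and 604 to 1276 CPM in old libraries. CD14 went from 8.66 ± 1.45 to 24.2 ± 0.924 CPM and LYZ2 from 41.8 ± 7.86 to 137 ± 30.1 CPM. Of 7 neutrophil markers tested, 4 rose, among them NCF4 (1.48 ± 0.24) and MPO (3.77 ± 0.81), and 3 did not pass, while their summed level overlapped (68.8 to 103 CPM in young, 61.2 to 139.6 CPM in old libraries). Among those that did not pass, the calgranulin gene S100A8 lay lower in every old library (64.5 ± 14.4 and 21.5 ± 16.5 CPM; -1.58 ± 0.53, edgeR adjusted p = 0.0788) and the chemokine receptor gene CXCR2 stood at -0.61 ± 0.30 (adjusted p = 0.210). DESeq2 and limma-voom each called 1 neutrophil marker lower. AQP9 minus the mean of the macrophage markers was -0.08 ± 0.78 on the log2 scale in young (range -0.96 to 1.10) and -2.96 ± 0.66 in old skin (-3.56 to -2.02). The difference was -2.88 (exact permutation test, two-sided, p = 0.00794, again the least that can be had, and adjusted p = 0.0238). It was -3.19 to -2.59 without any 1 library (adjusted p from 0.0429 to 0.0857). AQP9 lay lower and the marker mean higher in every old library, so complete separation of their difference was fixed in advance. The marker mean was 3.73 in young and 5.74 in old skin on the log2 scale. This test therefore says no more about AQP9 than its own values do. Among the 12858 named genes with a mean of at least 1 CPM, the 2 whose pattern over the 9 libraries was nearest to AQP9 were WNT3A, which encodes a Wnt ligand, and S100A14, which encodes an epithelial calcium-binding protein. Their centred log2 CPM differed from that of AQP9 by 0.143 and 0.157 on average, against a mean absolute deviation of 0.440 for AQP9 itself. S100A14 fell from 519 ± 73.6 to 272 ± 79.8 CPM (log2 fold change -0.93 ± 0.21, adjusted p = 0.0185), and WNT3A stood at -0.84 ± 0.27 (adjusted p = 0.0669).

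**Figure D3:**
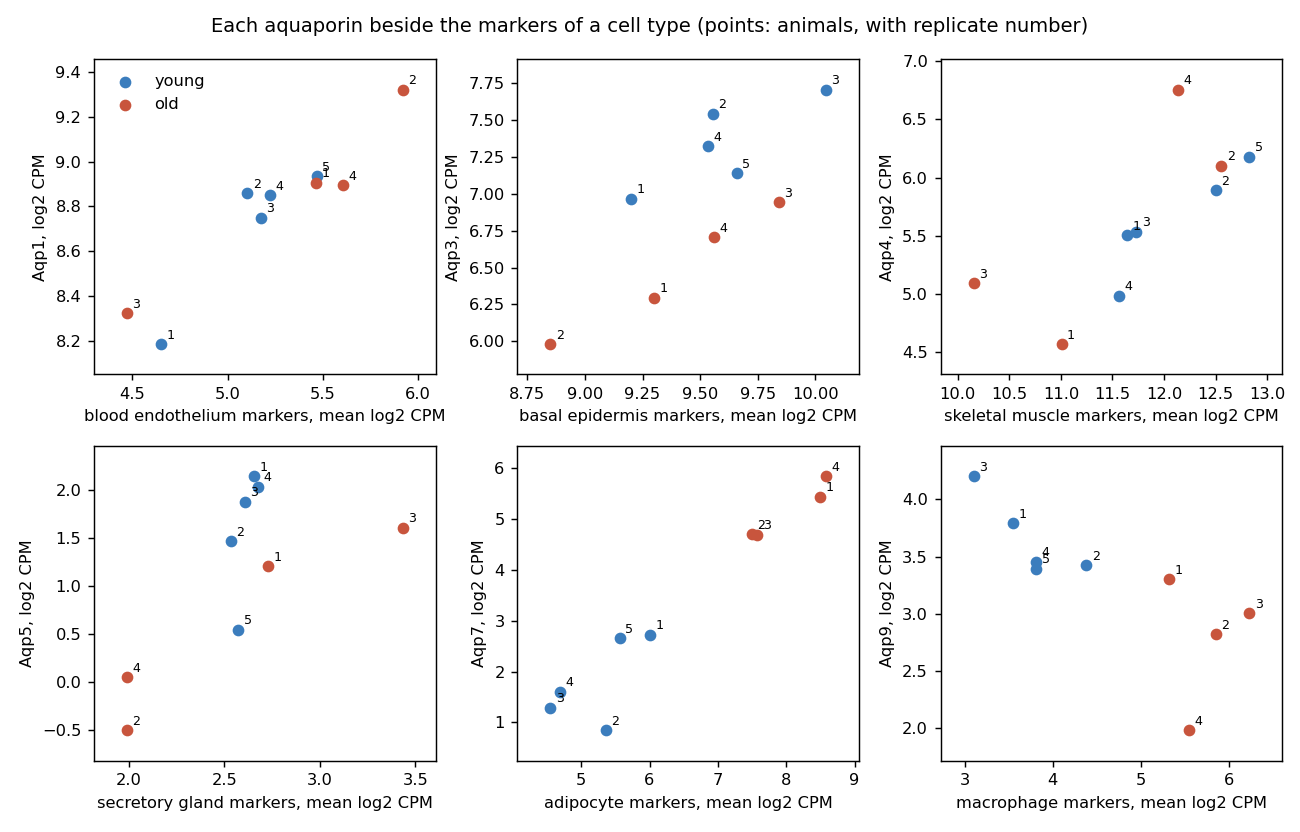
Log2 CPM of 6 aquaporins against the mean log2 CPM of the markers of a cell type; each point is an animal, with its replicate number, in blue for young and red for old. For AQP1 the points of both ages mix, for AQP3 the old points lie lower than the young ones, and for AQP9 the old points lie lower while the macrophage markers are higher.

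AQP1 is the water channel of capillary endothelium and red cells. Its level was 291, 465, 430, 461 and 489 CPM in young replicates 1 to 5 and 479, 639.5, 320.0 and 475 CPM in old replicates 1 to 4. Old replicates 1, 3 and 4 lay within the young range, and old replicate 2 lay above it. The mean was 427 ± 78.9 CPM in young (n = 5) and 479 ± 130 CPM in old skin (n = 4), with a log2 fold change of 0.16 ± 0.22 (edgeR adjusted p = 0.649) and a 95% interval of -0.32 to 0.65.

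Endothelial markers varied with AQP1 among animals. Of 12 tested, 0 passed in either direction by edgeR, by DESeq2 or by limma-voom, and 2 were higher and 0 lower at an unadjusted p under 0.05 in edgeR; the median log2 fold change was 0.33. PECAM1, an adhesion molecule of endothelial junctions, stood at 185 ± 33.6 and 276 ± 84.1 CPM (adjusted p = 0.136) and CDH5 at 72.5 ± 15.5 and 88.3 ± 25.4 CPM (adjusted p = 0.433). Young replicate 1 and old replicate 3 were the lowest of their groups for both AQP1 and the markers, and young replicate 5 and old replicate 2 were the highest. Between these ends the orders differed. In young skin it was 2, 4 and 3 for AQP1 and 4, 3 and 2 for the markers, and in old skin 1 and 4 against 4 and 1. AQP1 minus the marker mean was 3.59 ± 0.11 in young and 3.49 ± 0.25 in old skin on the log2 scale, a difference of -0.10 (two-sided exact permutation p = 0.444; adjusted p = 0.444). Red cell genes were also read: HBA2 rose from 10.3 ± 3.03 to 39.2 ± 18.7 CPM and HBB from 35.3 ± 10.3 to 109 ± 64.1 CPM, and near-identical globin gene copies may share reads with both. Of 5 erythroid genes tested, 3 rose and 1, the red cell membrane gene EPB42, fell (median 1.63), and their part in the AQP1 values was not tested. Without old replicate 2 the AQP1 value was -0.01. The nearest patterns to AQP1 were those of TACR1, the receptor of substance P, and GIMAP8, an immune-associated GTPase, at mean differences of 0.0738 and 0.0943. The mean absolute deviation of AQP1 itself was 0.241.

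AQP4, the water channel of fast muscle fibres and of astrocytes, spread widely among the old animals, with a coefficient of variation of 65.0% against 30.3% in the young. Its level was 45.4, 59.3, 46.4, 31.6 and 72.4 CPM in young replicates 1 to 5 and 23.7, 68.7, 34.1 and 108 CPM in old replicates 1 to 4. The old values spread on both sides of the young range. The mean was 51.0 ± 15.5 CPM (n = 5) and 58.6 ± 38.1 CPM (n = 4), with a log2 fold change of 0.20 ± 0.41 (edgeR adjusted p = 0.778) and a 95% interval of -0.73 to 1.12. Without old replicate 4 the value was -0.23 (adjusted p = 0.765).

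Muscle markers varied along with AQP4. In the young group the 5 animals stood in the same order, 5, 2, 3, 1 and 4 from high to low, for AQP4 and for the mean of 14 skeletal muscle markers. In the old group the order was 4, 2, 3 and 1 for AQP4 and 2, 4, 1 and 3 for the markers. Replicates 4 and 2 were thus highest for both, with the order turned within each pair. None of those 14 markers passed in either direction (0 by edgeR, also at an unadjusted p under 0.05, and 0 by DESeq2 and limma-voom); ACTA1 stood at 20679 ± 9572 and 11472 ± 9205 CPM and CKM at 10552 ± 4811 and 9590.2 ± 6390.5 CPM. AQP4 minus the marker mean was -6.43 ± 0.25 in young and -5.83 ± 0.72 in old skin (difference 0.60, two-sided exact permutation p = 0.143; adjusted p = 0.171), and the difference was 0.34 without old replicate 3. Of 8 markers of slow fibres, which carry less AQP4 than fast fibres, 6 fell (median log2 fold change -3.62), among them MYL2 from 188 ± 75.5 to 14.8 ± 11.9 CPM and ATP2A2, the slow-fibre calcium pump that other cells also express, from 530.0 ± 106 to 237 ± 37.6 CPM.

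AQP4 is held at the muscle membrane by the dystrophin complex. Of 14 genes of that complex tested, 0 passed in either direction by edgeR or by limma-voom, with 1 higher at an unadjusted p under 0.05 in edgeR and 1 called higher by DESeq2; the median log2 fold change was -0.08. DMD, which encodes dystrophin, stood at 110 ± 37.3 and 100.3 ± 28.1 CPM (adjusted p = 0.771), and DAG1, dystroglycan, at 282 ± 33.1 and 317 ± 68.0 CPM (adjusted p = 0.537). The nearest patterns to AQP4 were those of NR4A1, an immediate early nuclear receptor, and FBP2, the muscle fructose bisphosphatase, at mean differences of 0.169 and 0.178. The mean absolute deviation of AQP4 itself was 0.540.

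AQP5, the water channel of secretory cells, had few reads, 24 to 84 per young library and 12 to 102 per old library. Its level was 4.34, 2.68, 3.59, 4.01 and 1.37 CPM in young replicates 1 to 5 and 2.22, 0.616, 2.96 and 0.947 CPM in old replicates 1 to 4. Old replicates 1 and 3 lay within the young range, and old replicates 2 and 4 lay below it. The mean was 3.20 ± 1.20 CPM (n = 5) and 1.68 ± 1.09 CPM (n = 4), with a log2 fold change of -0.90 ± 0.48 (edgeR adjusted p = 0.246) and a 95% interval of -1.98 to 0.18. With the muscle score as a covariate it was -1.66 (adjusted p = 0.00302), the only alternative of 22 in which AQP5 passed.

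Gland markers were in part too low to test. Of 12 markers of secretory glands, 7 passed the filter on low counts, and the marker mean below rests on these 7. How particular they are to glands in this skin was not tested. None of them was called by edgeR or limma-voom, 1 was higher and 1 lower at an unadjusted p under 0.05 in edgeR, and DESeq2 called 1 in each direction. The median log2 fold change was -0.24. CHRM3, the muscarinic receptor that drives secretion, stood at 2.48 ± 1.48 and 1.40 ± 0.828 CPM (adjusted p = 0.305) and the chloride channel gene ANO1 at 79.4 ± 31.2 and 61.0 ± 12.9 CPM (adjusted p = 0.419). Old replicates 2 and 4 were the lowest of the old group for both AQP5 and the gland markers. In the young group the order was 1, 4, 3, 2 and 5 for AQP5 and 4, 1, 3, 5 and 2 for the markers. AQP5 minus the marker mean was -0.99 ± 0.61 in young and -1.95 ± 0.41 in old skin (difference -0.95, two-sided exact permutation p = 0.0476; adjusted over 6 comparisons, p = 0.0952). It was -1.54 with the median of the markers (adjusted p = 0.0595) and -1.22 without young replicate 5 (adjusted p = 0.0429). The sebaceous markers were also lowest in old replicates 2 and 4, and of 8 tested 3 fell, ELOVL6 (-3.09 ± 0.33), ELOVL3 (-2.37 ± 0.45) and the melanocortin receptor MC5R (-1.29 ± 0.25); their part in the AQP5 values was not tested. The nearest patterns to AQP5 were those of TRPV6, an epithelial calcium channel, and BSPRY, at mean differences of 0.305 and 0.314. The mean absolute deviation of AQP5 itself was 0.754.

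AQP11 sits in the membrane of the endoplasmic reticulum, where it passes water and hydrogen peroxide. Its level was 4.18, 4.79, 3.18, 3.96 and 3.02 CPM in young replicates 1 to 5 and 3.22, 1.95, 3.71 and 3.39 CPM in old replicates 1 to 4. Only old replicate 2 lay outside the young range. The mean was 3.83 ± 0.73 CPM (n = 5) and 3.07 ± 0.772 CPM (n = 4), with a log2 fold change of -0.31 ± 0.23 (edgeR adjusted p = 0.401) and a 95% interval of -0.83 to 0.21. It was -0.15 without old replicate 2 (adjusted p = 0.627) and -0.82 with the fat cell score (adjusted p = 0.947). Its nearest patterns were those of ENDOD1 and FZD2, a Wnt receptor, at mean differences of 0.122 and 0.129. The mean absolute deviation of AQP11 itself was 0.248, so even these differed from it by a large part of its spread.

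Hydrogen peroxide, which AQP3, AQP9 and AQP11 can pass, is made and broken down by enzymes that moved in both directions. Of 20 genes of peroxide handling, 6 rose, 3 fell and 11 did not pass (median log2 fold change 0.07). Of all genes tested, 9.62% rose and 4.41% fell by the same rule. GPX8 and GPX7, peroxidases of the endoplasmic reticulum, rose by 1.12 ± 0.15 and 0.96 ± 0.19 on the log2 scale, CYBB, the phagocyte oxidase, by 2.42 ± 0.34, and SOD3, the extracellular superoxide dismutase, by 1.13 ± 0.18. NOX4, an oxidase, rose by 1.47 ± 0.30 and the peroxidase gene GPX3 by 1.04 ± 0.30. The 3 that fell were NOX1, another oxidase (-1.26 ± 0.26), and the peroxiredoxin genes PRDX2 and PRDX5. Of 15 cell volume and osmolyte genes tested, 1 rose, the volume-regulated channel subunit LRRC8C (0.49 ± 0.11, adjusted p = 0.0197), and 0 fell, while 1 was lower at an unadjusted p under 0.05; limma-voom and DESeq2 also called 0 lower. NFAT5, the transcription factor of the response to hypertonic stress, stood at -0.01 ± 0.29 (adjusted p = 0.982).

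**Figure D4:**
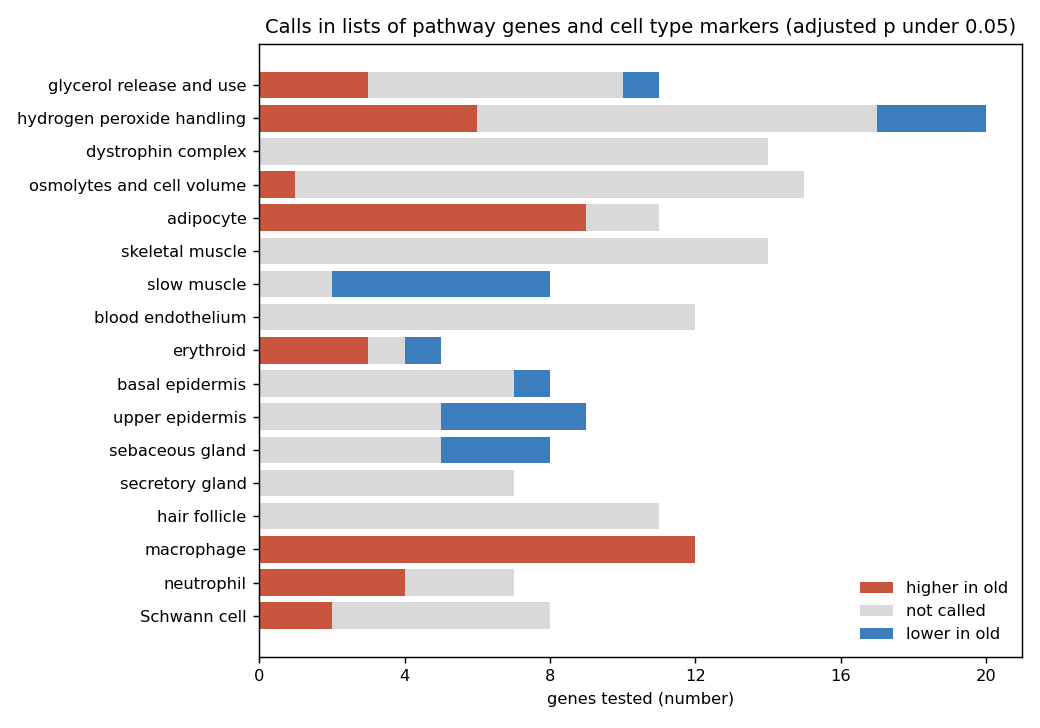
Number of genes called higher, not called and called lower in old skin (edgeR, adjusted p under 0.05) in each list of pathway genes and cell type markers; bar length is the number tested. Calls are many among fat cell (9 of 11) and macrophage markers (12 of 12), and 0 of 14 dystrophin complex genes and 0 of 12 endothelial markers were called. Of all genes tested, 14.0% were called, 9.62% higher and 4.41% lower.

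Of the other aquaporins, 5 were in the table and 1 passed the filter on low counts. That was MIP, the aquaporin of lens fibres, at 7.44, 3.25, 4.89, 7.12 and 4.22 CPM in young replicates 1 to 5 and 5.91, 2.77, 4.52 and 3.79 CPM in old replicates 1 to 4. The groups overlapped, and its log2 fold change was -0.34 ± 0.30 (edgeR adjusted p = 0.489). In GRCr8 no other gene overlaps MIP, but which build the deposited counts used is not known here. The nearest patterns to MIP were those of SHROOM3 and ARHGEF19 (0.105 for both), an actin regulator of epithelia and a guanine nucleotide exchange factor. The mean absolute deviation of MIP itself was 0.376. AQP8 had 8 reads over the young and 4 over the old libraries. AQP12A had 0 reads over the young libraries, which allows up to 0.0317 CPM (3 reads in 94.65 M, counting error only), and 5 over the old. AQP2, the water channel of the kidney collecting duct, had 13 reads in young skin, 11 of them in replicate 5, and 1 in old skin. AQP6 had 3 reads, all in young replicate 5, and 0 in old skin, which allows up to 0.0276 CPM. AQP2, AQP5 and AQP6 are neighbours on chromosome 7, and young replicate 5 had the lowest AQP5 level of the young group, 1.37 CPM.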

How the data were processed

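Per the labels' protocols, RNA was purified with Qiagen RNeasy columns and libraries were made from polyadenylated RNA with the TruSeq RNA v2 kit, which does not mark strand. The authors deposited 1 table of raw read counts, with a row for each gene symbol and a column for each of the 9 samples, matched by title. BWA is named in the submitters' processing notes, with no version; the sources used here name no genome build, annotation or counting rule. The most similar pair of libraries in a group still differed by 32.2 times what sampling noise gives, so all 9 entered as separate samples.

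Genes were kept with filterByExpr (minimum count 10, minimum total 15). Ages were compared with edgeR 4.0.16 (quasi-likelihood test, TMM) in R 4.3.3, with no covariate. Each SE was derived from the F statistic. The design text gives as many animals as samples in each group, so a sample was taken as 1 animal. Each aquaporin minus its marker mean used log2 CPM (prior count 2) and exact permutation tests. The labels name no batch or day of processing. Alternatives were other tools, scalings and filters, thinned libraries, marker scores as covariates and each library left out. In counts simulated for old against young over 14798 genes, 41% of 2-fold and 90.0% of 4-fold changes were recovered, with 2 of 133 calls false. Only 100 genes were changed by each fold there, against 2096 genes called in the real data. The adjusted threshold depends on that share, so these rates need not hold for the real data.

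The members and gene lists were chosen with earlier results of these data known. Of the list entries, 3 matched the table by another name and AQP10 was not analysed here. Genes were named by rule: all aquaporins in the table, for each the 2 nearest patterns, up to 4 called genes of each pathway list and 2 of each marker list (the first 2 where none passed). GK, PLD2, PNPLA2, NFAT5, NOX1, NOX4, GPX3, PRDX2, PRDX5, KRT5, PLIN4, CIDEA, EPB42, S100A8, CXCR2 and MC5R were named after their values were seen. In hair follicle genes, of 11 tested, 0 passed by edgeR, by DESeq2 or by limma-voom, or at an unadjusted p under 0.05 (median log2 fold change -1.04; KRT27 -1.04 ± 2.03, KRT25 -1.01 ± 2.07). Of 8 Schwann cell genes, 2 rose, S100B (3.75 ± 0.49) and PMP22 (0.98 ± 0.15), and fat cells also express S100B. Alternatives used DESeq2 1.42.0 and limma 3.58.1. Promoter windows came from RefSeq (GRCr8). Figures were drawn with matplotlib 3.10.9.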

Additional observations from a re-analysis of the deposited data

How the results depend on the processing

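Over 22 alternatives each, AQP7 was called in 21, AQP3 in 14, AQP9 in 3 and AQP5 in 1, and AQP1, AQP4 and AQP11 in 0; the causes of the changes below were not tested. With DESeq2, AQP9 passed at -0.83, members lower were 2 and genes lower 1280 (659 in edgeR). With library totals alone, AQP3 stood at -0.65, members lower at 0 (1 at an unadjusted p under 0.05) and genes lower at 312. With the muscle score, AQP5 passed at -1.66 and AQP9 at -1.03, with 3 members and 1036 genes lower. With the fat cell score, AQP3 stood at -0.20, AQP7 at 0.58, AQP1 at 0.63, AQP5 at -0.50, AQP9 at -0.28, AQP11 at -0.82 and AQP4 at -0.86, a turned sign, and members and genes called were 0 in both directions. Scores added after seeing the data gave 1001 (hair follicle) and 1333 genes lower (basal epidermis). With the replicate number as a block, AQP9 passed at -0.94 (edgeR adjusted p = 0.0469), members lower were 2, AQP3 was -0.90 and AQP7 3.57. Same-numbered samples are different animals, and their deviations correlated at 0.67, -0.07, 0.07 and -0.47. Differently numbered samples were not compared in this way, and whether samples of the same number share a batch was not tested. Against the marker median, AQP7 stood at 0.99, AQP3 at -0.99, AQP5 at -1.54 and AQP1 at -0.04. Leaving out 1 library gave AQP1 from -0.0085 to 0.35 (turned without old replicate 2), AQP3 from -0.97 to -0.69, AQP4 from -0.23 to 0.50 (turned without old replicate 4), members lower from 0 to 1 and genes lower from 236 to 786. Genes lower were 350, 371 and 316 without young replicate 2, 3 or 4 and 236 without old replicate 4. AQP11 ran from -0.39 to -0.15. Against markers, AQP1 ran from -0.21 to -0.03 (old replicate 3 or 4 left out), AQP4 from 0.34 to 0.81 (old replicate 3 or 2 left out), AQP3 from -0.71 to -0.58, AQP5 from -1.22 to -0.77 (passing without young replicate 5), AQP7 from 0.27 to 0.67 and AQP9 from -3.19 to -2.59. Depth limits AQP5, with 12 reads in its shallowest library.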
